A study of Mus musculus with 4 samples.

Results

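The genes described here are 10 immediate early genes outside the AP-1 family, followed in dermal white adipose tissue (dWAT) of old and young mice: Egr1, Egr2, Egr3, Nr4a1, Nr4a2, Nr4a3, Ier2, Ier3, Dusp1 and Zfp36. They were taken by name, through a match of the Ensembl identifier of each gene to its symbol, and all 10 were found among the 22913 genes listed in each library. All of them are annotated as protein-coding, and positions are on GRCm38. dWAT is the fat layer of the skin that surrounds the lower part of the hair follicles (HFs), and it was freed from the skin of C57BL/6 mice by microdissection. RNA sequencing gave 1 library for each of 4 groups: OTD (old mice, telogen), YTD (young mice, telogen), OAD (old mice, anagen) and YAD (young mice, anagen). Telogen is the resting phase of the HF, anagen is the growth phase, and anagen had been brought on by depilation in both OAD and YAD, so that phase and depilation cannot be told apart in these libraries. Old mice were 18 months and young mice 2 months old by the design text, which was followed here although the age field of the labels reads 18 months in YTD and 2 months in OAD. Per the methods of the study, dWAT of 20 mice per group was used for the sequencing. With 1 library per group, no spread between replicates is known, no difference could be tested, and no p-value is given.

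Immediate early genes are kept at a low level in resting cells and are transcribed within minutes of a growth factor, cytokine, stretch or stress signal, without the need for new protein. Signals reach them through MAP kinases and cAMP, which act on the factors SRF with its ELK partners and CREB, already bound at their promoters. Some of the products are transcription factors, such as the EGR zinc finger proteins and the NR4A nuclear receptors, and others shut the response down, such as the phosphatase DUSP1 and the mRNA decay factor ZFP36.

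Levels are given as FPKM (fragment numbers normalised for gene length and sequencing depth), as the authors deposited them, and a contrast of libraries as the difference in log2(FPKM + 1). On this scale differences of weakly expressed genes come out too small. A gene was counted as higher or lower when this difference was at least 1 in size. The depth, estimated from the lowest FPKM values, was roughly 17700000 to 24000000 fragments per library, and all 10 genes lay above the value of 3 fragments in every library. The lowest, Nr4a2 in YAD, corresponded to about 13.4 fragments. These estimates cover counting error only.

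The libraries differed in what else they held. All 15 adipocyte markers were above 0 in every library, with a summed FPKM of 8689 (OTD) and 7341 (YTD) in telogen and 2978 (OAD) and 2119 (YAD) in anagen. The 20 skeletal muscle markers summed to 78702 (OTD) and 124771 (YTD) in telogen and 18076 (OAD) and 13875 (YAD) in anagen, and 18 hair shaft genes summed to 281, 502, 30040 and 24207 in the same order. Mitochondrially encoded genes took 52.7% (OTD) and 44.7% (YTD) of all FPKM in telogen and 18.3% (OAD) and 14.4% (YAD) in anagen. In bulk tissue, fewer cells of a type and less RNA per cell cannot be told apart.

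The promoters of 5 of the genes are printed because they hold the DNA elements through which early response genes are known to be switched on. They were picked with the levels known. Of them, 4 belong to genes that were low in anagen, and that of Egr2 to a gene that was high in anagen. Motifs and levels were thus not tested against each other. The sequences are from RefSeq (GRCm38.p6), each read 5′ to 3′ on the strand of its gene, and begin 250 bases before a RefSeq start site and hold only bases outside annotated coding sequence and untranslated regions. The stretch of Egr2 lies inside the annotated gene, downstream of 2 of its other start sites. Capitals mark matches to the cAMP response element TGACGTCA (CRE) or its 5-base core TGACG, on either strand, to the CArG box bound by SRF, and to the EGR site GCGNGGGCG. The windows are Nr4a1 at chr15:101266596-101266845 (plus strand), Nr4a2 at chr2:57124004-57124253 (minus strand), Nr4a3 at chr4:48045055-48045152 (plus strand), Dusp1 at chr17:26508520-26508722 (minus strand) and Egr2 at chr10:67537619-67537868 (plus strand).
Nr4a1: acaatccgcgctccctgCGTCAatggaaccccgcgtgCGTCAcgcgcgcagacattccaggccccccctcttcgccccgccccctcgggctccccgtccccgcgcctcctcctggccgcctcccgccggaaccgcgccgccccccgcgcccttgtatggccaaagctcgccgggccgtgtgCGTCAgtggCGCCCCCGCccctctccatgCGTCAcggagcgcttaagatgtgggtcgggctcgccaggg
Nr4a2: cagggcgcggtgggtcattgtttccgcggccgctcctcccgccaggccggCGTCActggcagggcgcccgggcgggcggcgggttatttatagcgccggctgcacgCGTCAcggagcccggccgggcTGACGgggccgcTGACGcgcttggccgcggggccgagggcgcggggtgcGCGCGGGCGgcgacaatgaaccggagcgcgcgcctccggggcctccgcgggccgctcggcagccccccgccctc
Nr4a3: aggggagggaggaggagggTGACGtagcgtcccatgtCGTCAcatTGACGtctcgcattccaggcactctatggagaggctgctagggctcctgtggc
Dusp1: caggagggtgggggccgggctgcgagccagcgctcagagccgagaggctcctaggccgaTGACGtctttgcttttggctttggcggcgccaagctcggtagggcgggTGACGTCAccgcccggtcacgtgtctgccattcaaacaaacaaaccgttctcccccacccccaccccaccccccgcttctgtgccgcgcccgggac
Egr2: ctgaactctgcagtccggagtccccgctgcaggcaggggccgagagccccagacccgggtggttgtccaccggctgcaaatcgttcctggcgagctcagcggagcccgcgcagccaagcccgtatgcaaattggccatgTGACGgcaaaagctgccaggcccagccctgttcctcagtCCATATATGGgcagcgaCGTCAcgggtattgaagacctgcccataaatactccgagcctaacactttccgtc

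Windows from 250 bases before to 50 bases after the start were searched for 7 of the 10 genes, with 5 start sites for Egr2. Those of Egr1, Egr3 and Ier2 were not searched. The motifs were also counted in all 32851 RefSeq windows of mouse. The core TGACG was matched 4 times in each of Nr4a1, Nr4a2 and Nr4a3, and 3 times in Dusp1, where 2 of the matches lie within 1 full CRE, an element found in 1.79% of all windows. In Nr4a3 the fourth match lies in the transcribed part and is not printed. Over all windows, 20.8% held the core at all, 1.03% held 3 or more matches and 0.231% held 4 or more. In the Egr2 window shown, 1 core stood on each side of a CArG box, an element found in 1.63% of all windows. The overlapping windows of 2 nearby Egr2 start sites held the same matches, while that of the start site at 67537566 held a CArG box and no core and that at 67535499 held none of the motifs. The window of Zfp36 held a CArG box and an EGR site and no core, and that of Ier3 held neither a CArG box nor a core. The EGR site, found in 5.55% of all windows, was also matched once in Nr4a1 and once in Nr4a2. A site for NF-kappa B, found in 4.51% of all windows, was matched once in Nr4a1 and once in Ier3. The AP-1 site TGANTCA and the NR4A site AAAGGTCA, found in 7.81% and 1.51% of all windows, were matched in none of these genes. All motifs were searched on both strands. The base composition of the windows differed, with 81.7% G and C in Nr4a2, 72.3% in Nr4a1, 67% in Dusp1, 64.7% in Nr4a3 and 54.0% in Ier3, and its part in the number of matches was not tested. A match is a stretch of letters and does not show that a factor was bound.

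**Figure D1:**
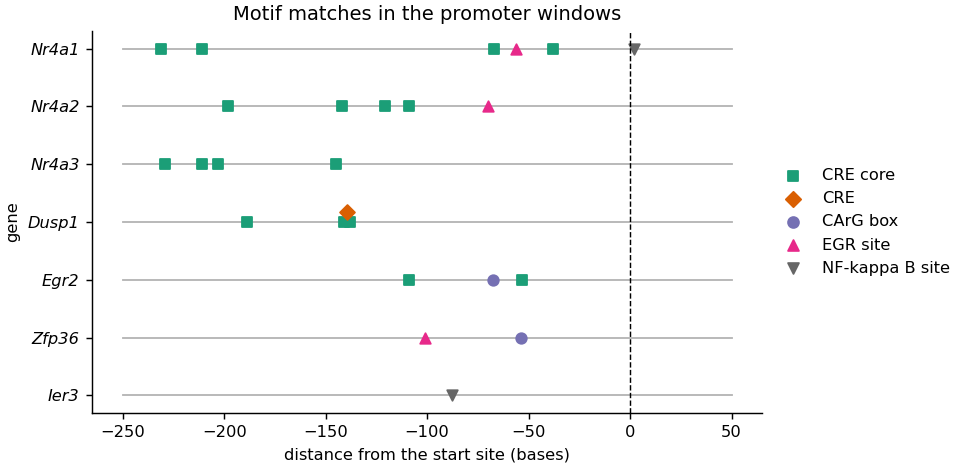
Motif matches on either strand in the promoter windows of 7 genes, by distance in bases from the RefSeq start site (dashed line), with 1 of the 5 start sites of Egr2 (that of the printed sequence). Nr4a1, Nr4a2 and Nr4a3 have 4 matches to the CRE core each (squares), and CArG boxes (circles) are seen in Egr2 and Zfp36.

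The first comparison asks how old dWAT differed from young dWAT while the HFs rested. In telogen, 9 of the 10 genes were higher in OTD than in YTD and none was lower, and Ier3, the exception, had a difference of 0.82. The median difference was 1.29. Of all 17230 genes with a value above 0 in either library, 1.67% were higher and 1.93% were lower, and their median was -0.03. In anagen, none of the 10 genes was higher or lower in OAD than in YAD. With a pseudocount of 0.1 or 0.01 in place of 1, Nr4a1 (2.01-fold) and Nr4a2 (2.52-fold) passed the threshold. The share of all genes was not counted with those pseudocounts. With a pseudocount of 1, the median of the 10 genes was 0.31. There, 0.727% of 17613 genes were higher and 0.454% were lower, and their median was 0. As to the order of the 4 libraries, 6 of the 10 genes were lowest in YTD and 7 were highest in OTD, or 5 when the libraries were rescaled to TPM (each library summing to the same total). Of 14203 genes with FPKM of at least 1 in any library, 22.3% were lowest in YTD and 22.5% were highest in OTD. Egr1, Ier3 and Zfp36 were both lowest in YTD and highest in OTD, which 2.37% of those genes were, and of these only Zfp36 kept that pattern in TPM. The 10 genes together summed to an FPKM of 591 (OTD) and 210 (YTD) in telogen and 353 (OAD) and 303 (YAD) in anagen, so that YTD stood below the other libraries.

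**Figure D2:**
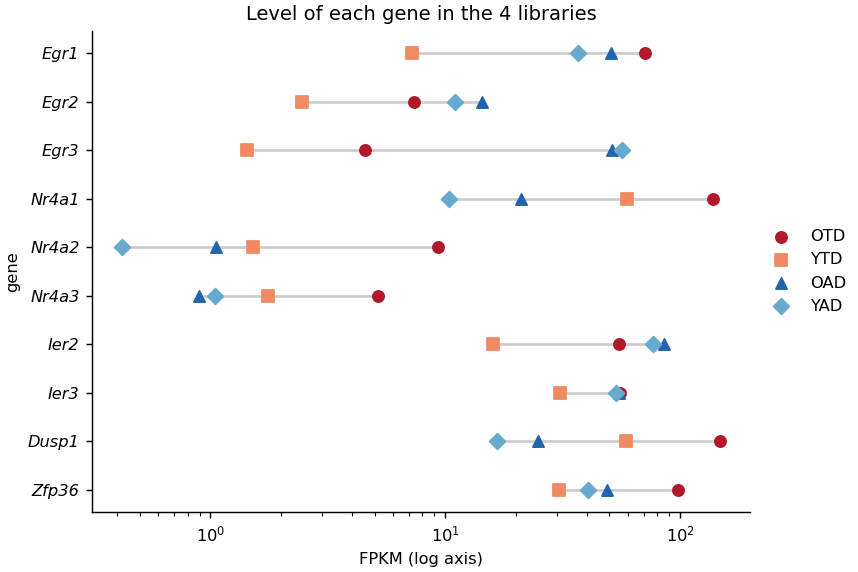
FPKM of each gene (log axis) in the 4 libraries, 1 point per library, with a grey line from the lowest to the highest. YTD (squares) is the lowest library for Egr1, Egr2, Egr3, Ier2, Ier3 and Zfp36, and the anagen libraries (triangles and diamonds) are the lowest for Nr4a1, Nr4a2, Nr4a3 and Dusp1.

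Among the EGR factors, Egr1 (ENSMUSG00000038418, chromosome 18 from 34859823 to 34864984) is the one most widely used as a readout of recent stimulation. Its FPKM was 71.0 (OTD) and 7.25 (YTD) in telogen and 50.6 (OAD) and 36.7 (YAD) in anagen. YTD thus stood well below the other libraries, of which OTD was the highest. The difference was 3.13 between the ages in telogen, the largest of the 10 genes, and 0.45 in anagen. Egr2 (ENSMUSG00000037868, chromosome 10 from 67535475 to 67542188), known for its roles in myelination, in lymphocytes and in the onset of fat cell differentiation, had an FPKM of 7.38 (OTD) and 2.46 (YTD) in telogen and 14.4 (OAD) and 11.0 (YAD) in anagen. Both anagen libraries were above both telogen libraries, and YTD was again lowest. The difference between the ages was 1.28 in telogen and 0.35 in anagen.

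Egr3 (ENSMUSG00000033730, chromosome 14 from 70077445 to 70080157), a factor that shares its binding site with EGR1 and is itself a target of it in some cells, had an FPKM of 4.54 (OTD) and 1.44 (YTD) in telogen and 51.4 (OAD) and 56.3 (YAD) in anagen. The anagen levels were far above the telogen levels at both ages, and the highest library was 39.3-fold above the lowest, the widest span of the 10 genes. OTD was 3.16-fold above YTD, a difference of 1.18, while OAD and YAD differed by -0.13. Per length, the makeup of the family differed between the telogen and the anagen libraries. Egr1 made up 85.5% of the summed FPKM of the EGR genes in OTD and 65.1% in YTD, but 43.5% in OAD and 35.3% in YAD, where Egr3 made up 44.1% and 54.1%. These shares are taken within a library and do not depend on how the libraries were scaled. Egr4, the remaining family member, was at most 0.099 FPKM, in OTD, and was listed at 0 in YTD.

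**Figure D3:**
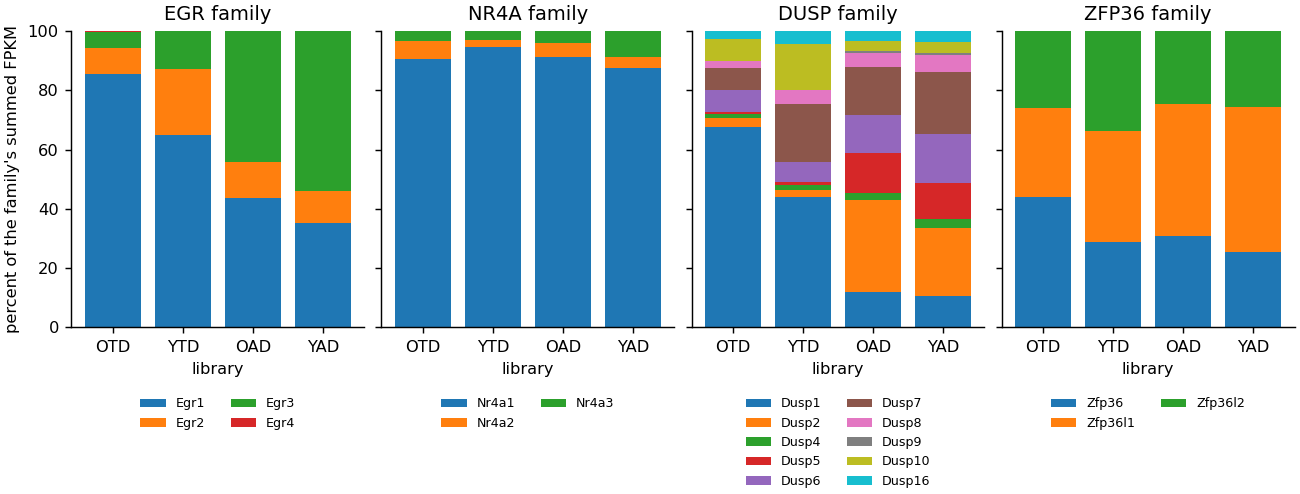
Share of each gene in the summed FPKM of its family (percent), in the 4 libraries, for the EGR, NR4A, DUSP (10 phosphatases) and ZFP36 families. Egr3 takes a larger share of the EGR genes in OAD and YAD than in OTD and YTD, and Dusp1 a smaller share of the DUSP genes, while Nr4a1 holds between 87.6% and 94.8% of the NR4A genes in every library.

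The corepressors NAB1 and NAB2 bind EGR proteins and hold back their activity, and NAB2 is itself induced by them. Nab1 had an FPKM of 14.3 (OTD) and 9.60 (YTD) in telogen and 12.6 (OAD) and 12.3 (YAD) in anagen. Nab2 had 9.04 (OTD) and 6.24 (YTD) in telogen and 40.2 (OAD) and 41.5 (YAD) in anagen, a span between phases like the one seen for Egr3 in direction. Neither passed the threshold between the ages, with a difference in telogen of 0.53 for Nab1 and 0.47 for Nab2.

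The NR4A genes encode orphan nuclear receptors whose activity is set mainly by how much of them is made. Nr4a1 (ENSMUSG00000023034, chromosome 15 from 101266846 to 101274792), also called Nur77, had an FPKM of 138 (OTD) and 59.5 (YTD) in telogen and 20.9 (OAD) and 10.4 (YAD) in anagen. Both telogen libraries were above both anagen libraries, and the old library was the higher in each phase. The difference between the ages was 1.20 in telogen and 0.94 in anagen, the latter just under the threshold. Nr4a2 (ENSMUSG00000026826, chromosome 2 from 57106830 to 57124003), known from the development of dopamine neurons and from inflamed tissue, had an FPKM of 9.27 (OTD) and 1.52 (YTD) in telogen and 1.06 (OAD) and 0.42 (YAD) in anagen. OTD stood well above the other libraries and was 6.08-fold above YTD, a difference of 2.02. OAD was 2.52-fold above YAD, a difference of 0.54, which was 1.15 with a pseudocount of 0.1 and 1.31 with 0.01. Nr4a3 (ENSMUSG00000028341, chromosome 4 from 48045153 to 48086447) had an FPKM of 5.18 (OTD) and 1.77 (YTD) in telogen and 0.89 (OAD) and 1.05 (YAD) in anagen. Here too OTD stood apart, with a difference between the ages of 1.16 in telogen and -0.11 in anagen. Nr4a1 made up 90.5%, 94.8%, 91.5% and 87.6% of the summed NR4A FPKM in OTD, YTD, OAD and YAD, so it led the family in every library.

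NR4A1 and NR4A2 can bind DNA as partners of retinoid X receptors. None of the 3 genes for these receptors passed the threshold between the ages in either phase, and all of them were below 0 in telogen, with a median of -0.63.

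IER2 and IER3 are small early response proteins, of which IER3 is known as a regulator of cell death downstream of NF-kappa B. Ier2 (ENSMUSG00000053560, chromosome 8 from 84661331 to 84662852) had an FPKM of 54.9 (OTD) and 16 (YTD) in telogen and 85.6 (OAD) and 76.5 (YAD) in anagen. YTD was lowest and both anagen libraries were above both telogen libraries, with a difference between the ages of 1.72 in telogen and 0.16 in anagen, the latter -0.07 when the libraries were rescaled to TPM. Ier3 (ENSMUSG00000003541, chromosome 17 from 35821684 to 35822923) had an FPKM of 55.3 (OTD) and 30.8 (YTD) in telogen and 54.8 (OAD) and 53.5 (YAD) in anagen. In FPKM as deposited, the other libraries lay within a few percent of each other and YTD was below them. The highest library was 1.79-fold above the lowest, the narrowest span of the 10 genes. In TPM the order for Ier3 was YAD, OAD, OTD and YTD, from high to low. Its difference between the ages was 0.82 in telogen and 0.03 in anagen, or -0.19 in TPM.

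Dusp1 (ENSMUSG00000024190, chromosome 17 from 26505590 to 26508519) encodes the phosphatase that switches off p38 and JNK, and it is induced by the same signals and by glucocorticoids. Its FPKM was 147 (OTD) and 59.1 (YTD) in telogen and 24.7 (OAD) and 16.7 (YAD) in anagen. The order of the libraries was that of Nr4a1, with telogen above anagen and the old library above the young one in each phase, and the difference between the ages was 1.31 in telogen and 0.54 in anagen. Dusp1 overlaps Ergic1 on the opposite strand, and whether the counting used strand is not given in the sources used here. Among 10 DUSP phosphatases, the share of Dusp1 in the summed FPKM was 67.7% (OTD) and 44.0% (YTD) in telogen and 11.8% (OAD) and 10.5% (YAD) in anagen. In anagen other members held larger shares, such as Dusp2, a nuclear phosphatase of ERK and p38, which made up 31.0% in OAD and 22.9% in YAD. Dusp2 was the only one of the 9 other DUSP genes past the threshold between the ages, with an FPKM of 6.83 (OTD) and 2.89 (YTD) in telogen and 65.1 (OAD) and 36.5 (YAD) in anagen and a difference of 1.01 in telogen.

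Zfp36 (ENSMUSG00000044786, chromosome 7 from 28376784 to 28379255) encodes tristetraprolin, which binds AU-rich elements and speeds the decay of cytokine mRNAs. Its FPKM was 98.2 (OTD) and 30.5 (YTD) in telogen and 48.6 (OAD) and 40.4 (YAD) in anagen. OTD was highest and YTD lowest, with a difference between the ages of 1.66 in telogen and 0.26 in anagen. The gene overlaps Gm44710 on the opposite strand, with the same limit as for Dusp1. The related decay factors did not pass the threshold between the ages. Zfp36l1 had an FPKM of 66.9 (OTD) and 39.5 (YTD) in telogen and 71.0 (OAD) and 78.7 (YAD) in anagen, and Zfp36l2 had 57.8, 35.5, 39.0 and 41.1 in the same order. Zfp36 made up 44.1% of the 3 genes in OTD and between 25.2% and 30.6% in the other libraries.

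**Figure D4:**
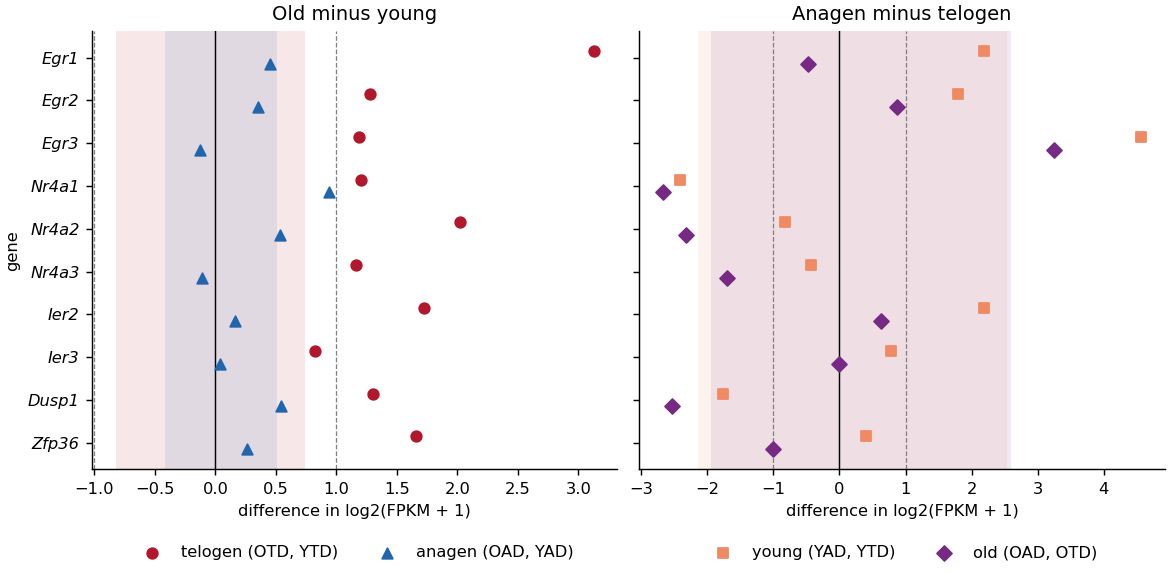
Difference in log2(FPKM + 1) of each gene between the ages (left, telogen and anagen) and between the phases (right, young and old). Shaded bands in the colour of each comparison span the 5th to 95th percentile of all genes with FPKM of at least 1 in either library, and dashed lines mark a difference of 1 in size. All 10 telogen points on the left lie above the telogen band, and on the right the points of Nr4a1, Nr4a2, Nr4a3 and Dusp1 lie below 0 while those of Egr2, Egr3 and Ier2 lie above it (Nr4a3 in young mice is 0.05 in TPM).

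The second comparison asks how the genes differed between the phases at one age. It uses the same 4 libraries as the comparison of ages, so its values are not independent of those above. In young mice, Egr1, Egr2, Egr3 and Ier2 were higher in YAD than in YTD and Nr4a1 and Dusp1 were lower. In old mice, Egr3 alone was higher in OAD than in OTD, and Nr4a1, Nr4a2, Nr4a3, Dusp1 and Zfp36 were lower. Large differences between the phases were common. Of all genes, 16.1% were higher and 16.7% lower in anagen in young mice, and 16.1% were higher and 15.6% lower in old mice, and both telogen libraries were above both anagen libraries for 40.8% of genes and below them for 43.3%. Among the 10 genes, 4 had both telogen libraries on top (the 3 NR4A genes and Dusp1) and 3 had both anagen libraries on top (Egr2, Egr3 and Ier2), which are shares near those of all genes. In TPM, OAD was above YTD for Nr4a2 and YAD was above YTD for Nr4a3.

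Egr3 had the largest difference between the phases, 4.56 in young and 3.24 in old mice, or 39.3-fold and 11.3-fold. Nr4a1 was 5.72-fold lower in YAD than in YTD and 6.6-fold lower in OAD than in OTD, and Dusp1 was 3.54-fold and 5.96-fold lower. Nr4a2 was 3.62-fold and 8.74-fold lower, with a difference of -0.83 in young mice (-1.64 and -1.83 with a pseudocount of 0.1 and 0.01) and -2.32 in old mice, and Nr4a3 had -0.44 and -1.71, of which the value for young mice was 0.05 in TPM. In FPKM, the NR4A genes and Dusp1 were thus below 0 at both ages, and Egr2, Egr3 and Ier2 above 0. Both directions were common, with both telogen libraries above both anagen libraries for 40.8% of all genes and below them for 43.3%. The difference of Egr1 was 2.19 in young mice and -0.48 in old mice, and that of Zfp36 was 0.39 and -1.0. Ier3 was 0.77 and -0.01. In TPM, the values in old mice were 0.13 for Egr1, 0.59 for Ier3 and -0.39 for Zfp36, and those of Ier3 and Zfp36 in young mice were 1.6 and 1.22, so that 6 genes were higher in YAD. Rescaling to TPM moved the median of all genes by 0.73 in young and 0.53 in old mice and changed the split of calls from 2829 higher and 2938 lower to 5891 and 1274 in young mice, and from 2854 and 2759 to 4923 and 1502 in old mice, so the direction of small differences between the phases depends on the scale. The phases also differed in their cell markers, with medians in young and old mice of -1.71 and -1.43 for 15 adipocyte markers, -1.52 and -1.85 for 12 endothelial markers, -1.36 and -2.04 for 15 macrophage markers, -3.05 and -1.99 for 20 muscle markers, 3.71 and 4.47 for 13 epidermal markers and 5.69 and 6.77 for 18 hair shaft genes. The part of these cells in the differences of the 10 genes was not tested.

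Marker genes also differed between the ages in telogen in the FPKM as deposited, with smaller medians. All 12 endothelial markers were above 0, with a median of 0.58 and a summed FPKM of 697 in OTD and 458 in YTD. Of the 15 macrophage markers, 14 were above 0, with a median of 0.38 and sums of 1041 and 619. The 11 fibroblast markers had a median of 0.41 and sums of 1884 and 1332, and the 8 smooth muscle and pericyte markers a median of 0.42 and sums of 597 and 327. All 20 skeletal muscle markers were below 0, with a median of -0.70, and the 15 adipocyte markers had a median of 0.08. The median was -0.42 for 13 epidermal markers, -0.83 for 18 hair shaft genes, -0.04 for 14 melanocyte markers, 0.23 for neutrophil and 0.14 for T cell markers. None of the adipocyte, endothelial, macrophage, fibroblast or skeletal muscle markers was at 0 in either telogen library. Past the threshold, 3 smooth muscle and pericyte, 2 fibroblast, 2 neutrophil, 1 endothelial and 1 macrophage marker were higher in OTD. Lower were 7 hair shaft, 5 skeletal muscle, 1 epidermal and 1 neutrophil marker. The 10 genes had a median of 1.29. It was 1.5, with 9 genes higher, when mitochondrially encoded and muscle marker genes were left out and the libraries rescaled. That rescaling moved the median of all genes by 0.12. It moved the calls of all genes from 287 higher and 333 lower in OTD to 612 and 359. The part of the other cell types was not tested. In anagen, in FPKM as deposited, 15 of 15 adipocyte (median 0.30) and 12 of 12 endothelial markers (median 0.30) were above 0. All 14 melanocyte markers (median -0.71) and 14 of 15 macrophage markers (median -0.26) were below 0. The 11 fibroblast markers had a median of -0.43, with 3 lower in OAD. Medians were 0.22 for skeletal muscle, 0.26 for epidermal and 0.34 for hair shaft genes. They were 0.36 for neutrophil, 0.07 for T cell and -0.04 for smooth muscle and pericyte markers.

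The wider early response was read from lists of related genes. In telogen, 5 of 12 AP-1 genes were higher in OTD and none lower, with a median of 0.82. The shares of all genes were 1.67% higher and 1.93% lower. Fosb had an FPKM of 22.5 in OTD against 0.51 in YTD, Fos 131 against 12.3, Junb 119 against 19.5, and Atf3, a stress-induced repressor, 41.6 against 11.2. In anagen, Fos and Atf3 were the only genes of any list related to these pathways that passed the threshold, with differences of 1.17 and 1.4, from 18.5 in OAD against 7.68 in YAD for Fos and 8.47 against 2.60 for Atf3. Of 31 other early response genes, 13 were higher in OTD and none lower, with a median of 0.90. Among them were Btg2, which slows cell division, with an FPKM of 70.0 (OTD) and 15.7 (YTD) in telogen and 25.0 (OAD) and 17.5 (YAD) in anagen, Ccn1, a matrix protein induced by stretch, with 82.9, 20.7, 15 and 8.39, Maff with 14.2, 3.64, 12.1 and 8.73, and Klf4 with 60.8, 21.4, 65.4 and 57.8. Btg2, Maff and Klf4 were lowest in YTD, as were 6 of the 10 genes, whereas Ccn1 was lowest in YAD, as were Nr4a1, Nr4a2 and Dusp1.

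The genes that carry the signal to these promoters were not among those that passed. None of the 10 SRF and CREB input factors and none of the 9 MAP kinases was higher or lower between the ages in either phase, with medians in telogen of -0.21 and -0.28. mRNA levels say nothing of the phosphorylation by which these proteins act. Downstream of ZFP36, 4 of 10 mRNAs known to be its targets were higher in OTD and none lower. The shares of all genes were 1.67% higher and 1.93% lower. The median of the targets was 0.60, or 1.57 and 2.20 with a pseudocount of 0.1 and 0.01. Tnf was the only target below 0 in telogen, with a difference of -0.33 and an FPKM of 0.36 (OTD) and 0.70 (YTD). Il1b had an FPKM of 3.37 (OTD) and 0.74 (YTD) in telogen and 0.28 (OAD) and 0.22 (YAD) in anagen, and Ccl2 had 15.6, 5.95, 0.25 and 0.46. Cxcl1, at 15.1 in OTD, and Il6, at 6.19, were under the value of 3 fragments in YTD, which makes them at least 27.5-fold and at least 24.6-fold higher in OTD. Zfp36 and the 4 targets past the threshold were thus highest in OTD, whereas Tnf was highest in YAD, at 1.14. Of 10 heat shock genes, which respond to stress, 3 were higher in OTD and none lower, with a median of -0.09, or 0.13 with mitochondrially encoded genes left out. Hspa1a had an FPKM of 26.5 (OTD) and 7.55 (YTD) in telogen and 26.7 (OAD) and 26.3 (YAD) in anagen, Hspa1b 28.6, 8.40, 78.6 and 77.4, and Dnajb1 35.7, 13.2, 30.1 and 28.8. YTD was the lowest library for all 3, as it was for Egr1 and Ier2. Hspa1a and Hspa1b are near-identical copies, between which the assignment of fragments is uncertain. Whether these genes and the 10 early response genes followed one signal was not tested.

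**Figure D5:**
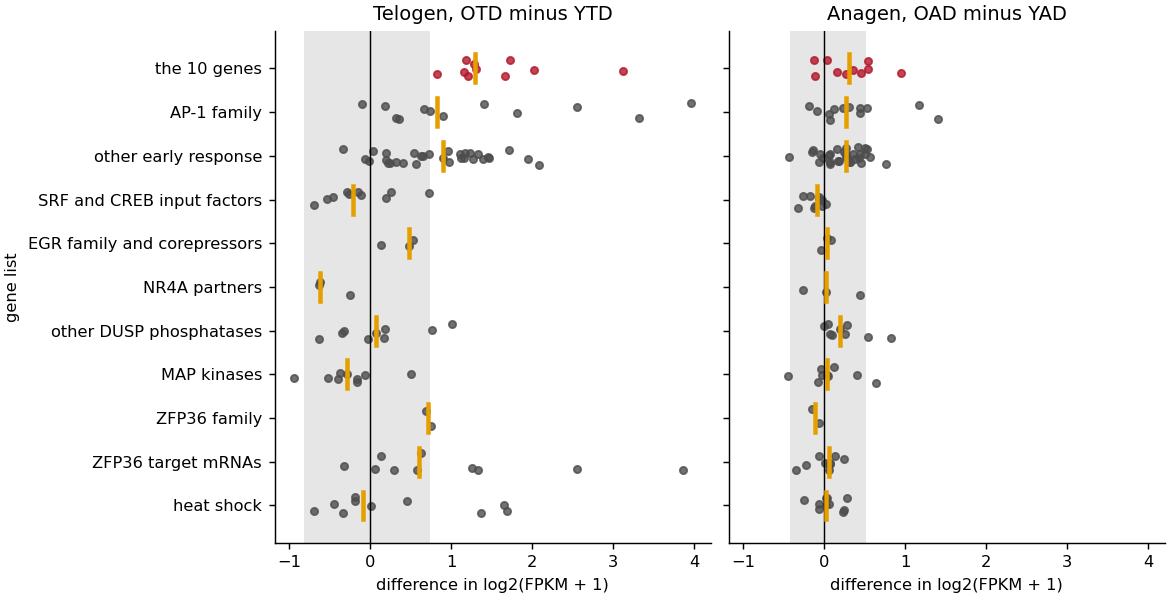
Difference in log2(FPKM + 1) between the ages in telogen (left) and anagen (right) for the 10 genes (red) and 10 lists of related genes (grey), 1 point per gene, with the median as an orange bar and the grey band from the 5th to the 95th percentile of all genes with FPKM of at least 1 in either library. In telogen the 10 genes have a median of 1.29, and in anagen the medians of all lists lie between -0.11 and 0.31.

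Outside all of these lists, the 8 genes closest to the median profile of the 10 genes over the 4 libraries were Irs2, Zfp984, Hrh1, Casp1, Hs3st1, Il18, Ginm1 and Tmsb15b2, with Euclidean distances of 0.33 to 0.50 on the log2 scale after centring. Irs2, an adaptor of the insulin receptor, had an FPKM of 11.2 (OTD) and 3.32 (YTD) in telogen and 5.79 (OAD) and 4.16 (YAD) in anagen. Casp1, the protease of the inflammasome, had 11.1, 3.97, 5.12 and 4.58, and Il18, a cytokine that this protease matures, had 6.15, 1.27, 2.57 and 1.37. All 8 genes were highest in OTD and lowest in YTD, as were Egr1, Ier3 and Zfp36. The median profile has the same order, so it follows from how the 8 genes were chosen. Over only 4 libraries this likeness is a description, and of 12511 genes compared 147 had a correlation of at least 0.9 with the median profile. The 10 genes were themselves at distances of 0.27 (Zfp36) to 4.11 (Egr3) from it.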

How the data were processed

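Total RNA of dWAT was sequenced in 4 libraries on an Illumina HiSeq instrument, 1 library for each combination of age and phase, and groups follow the sample titles. The submitters' processing notes name bcl2fastq, TopHat2 and GRCm38. The tool and annotation behind the FPKM, any scaling between libraries and the use of strand are not given in the sources used here. Deposited by the authors were the FPKM of 22913 genes, with gene positions and a length, which is a multiple of 3 for 97.0% of genes (a coding length). Of 22166 Ensembl identifiers, 21750 were matched to a symbol.

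FPKM were used as deposited, with a pseudocount of 1 on the log2 scale and a threshold of 1. The depth was estimated from genes of 2000 to 4000 bases, whose lowest values gather at 1 fragment, and a fold against a value under 3 fragments is a lower bound. No test was possible. The 10 genes and the lists were chosen with earlier results of these data known. Named genes are the 10 genes and up to 4 genes per related list past the threshold between the ages. Others are Egr4, Nab1, Nab2, Zfp36l1, Zfp36l2, Tnf, and the 8 genes closest to the median profile. These 8 are from genes with a mean FPKM of at least 1. Retinoid receptors, DUSP genes and marker lists are given as counts or sums. The steps were run on simulated data with planted differences above the threshold. These data held counting error only, so they cannot show how far spread between samples would matter. Promoters were taken from RefSeq (GRCm38.p6). Python 3.11.15, numpy 2.4.6, pandas 2.3.3, scipy 1.17.1 and matplotlib 3.10.9 were used.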

Additional observations from a re-analysis of the deposited data

Results flagged for a closer look

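For 5 of the 10 genes, differences under the same comparison took opposite signs in the groups compared. With 1 library per group, none of these contrasts of differences was tested. On the scale of log2(FPKM + 1), the difference of Egr1 between anagen and telogen was 2.19 in young and -0.48 in old mice, the latter 0.13 in TPM. That of Ier3 was 0.77 in young and -0.01 in old mice, the latter 0.59 in TPM, and that of Zfp36 was 0.39 in young and -1.0 in old mice, or 1.22 and -0.39 in TPM. The old minus young difference of Egr3 was 1.18 in telogen and -0.13 in anagen, and that of Nr4a3 was 1.16 in telogen and -0.11 in anagen. YTD was the lowest library for Egr1, Egr3, Ier3 and Zfp36, and it enters both kinds of comparison.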

How the results depend on the processing

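Of 107 counts recomputed under the alternatives, 99 stayed within 1.5 times the reported value. At a threshold of 1.5, 4 of the 10 genes were higher in OTD (Egr1, Nr4a2, Ier2 and Zfp36), and the share of all genes was not counted there. With a pseudocount of 0.1 or 0.01, 2 genes were higher in OAD, Nr4a1 and Nr4a2, and the share of all genes was not counted there either. In TPM, 6 genes were higher and 1 was lower in YAD than in YTD and 3 were higher in OAD than in OTD. Rescaling moved the median of all genes in telogen by 0.19 with mitochondrially encoded genes left out, and in anagen by -0.21 in TPM. The split of all genes between higher and lower in OTD moved from 287 and 333 to 656 and 270 with mitochondrially encoded genes left out, and that in OAD from 128 and 80 to 104 and 175 in TPM. The median of the 10 genes lay between 1.26 and 1.62 in telogen and between 0.09 and 0.32 in anagen over all alternatives, and the number of genes lowest in YTD was 6 under all 4 scalings, while the number highest in OTD was 5 in TPM. No paired analysis was possible because each group had 1 library, and for the same reason no library could be left out. The 10 genes lay above 3 fragments in every library, and the spread between samples is unknown.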
